A study of Xenopus laevis with 2 samples.

Results

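This account describes a control hybridisation of animal caps that expressed the part of the human glucocorticoid receptor that binds hormone (hGR), and no EBF3 mRNA, and were treated with dexamethasone (DEX), read against untreated caps that expressed hGR-Xebf3. EBF3 is a helix-loop-helix transcription factor of the EBF (COE) family, and hGR-Xebf3 is a fusion that hormone is used to activate. The study had 2 two-colour Agilent arrays of Xenopus laevis, 1 for each DEX-treated sample, and both carried untreated hGR-Xebf3 caps as the Cy5 channel, called the reference here. Whether both reference channels came from 1 RNA extract is not stated in the sources used here. All embryos were X. laevis injected with mRNA at the 1-cell stage, with 0.4 ng of hGR mRNA for the caps described here and 1 ng of hGR-Xebf3 mRNA for the reference. Caps were cut at stage 9 and held in 30 µM DEX for 4.5 hours, or in saline without DEX for the reference, and no Noggin was used. The other array held hGR-Xebf3 caps with DEX (active EBF3) in Cy3, and its values are given only beside those of the hGR array.

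Probes were taken by flags of the scanner software: gene probes, not flagged as non-uniform, and well above background in both channels of the hGR array. Of 21495 gene probes, 10422 met this rule (10247 of 21201 genes by name, an EST counted as its own), and no value among them was a surrogate. Of the rest, 152 probes were flagged non-uniform, 1914 were well above background in 1 channel only (1858 of them in Cy5 and 56 in Cy3) and 9007 in neither. The lowest signal that passed was higher in Cy3 than in Cy5. Signals of the probes kept ran from 205 to 915742 in Cy3 and from 149 to 566563 in Cy5, in arbitrary units. The 7 probes saturated in Cy5 were all within 2-fold. The measure is the log2 ratio of Cy3 over Cy5, positive where DEX-treated hGR caps were higher. Levels of different probes are not compared with each other.

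Animal caps are prospective ectoderm, which becomes epidermis under BMP signalling and neural tissue when BMP is blocked. The dorsal organizer secretes antagonists such as chordin and noggin, while ventral cells express BMP targets such as szl, ventx and gata factors. DEX is a synthetic glucocorticoid that binds the hGR domain and also the frog's own receptor, nr3c1. Known glucocorticoid targets in vertebrates include tsc22d3, per1 and klf9. In the absence of hormone, fusions to this domain are generally held inactive in the cytoplasm. Whether hGR-Xebf3 was fully inactive in the reference was not tested here. The comparison serves as a control for the hGR domain and DEX. Its samples differ both in DEX and in which mRNA was injected, and those cannot be told apart. There was 1 biological replicate and no dye swap, so values carry neither an error between replicates nor a p-value, and the array, its slide and any dye bias of a probe cannot be told apart from the groups.

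Several genes that define ectoderm were bright in both samples. Of the epidermal or ectodermal markers with a probe, 7 of 8 were measured by at least 1 probe. The E-cadherin gene cdh1.S gave 84234 in hGR caps and 65813 in the reference. The keratin krt8.1.S gave 129832 and 149892. The krt70.S keratin probe was saturated, so its ratio is not exact. Not all probes of these markers were bright: tfap2a.S gave 2731 and 1987, and krt12.6.S 522 and 543. Those of krt12.2 and krt18.1.S were not well above background in hGR caps. Probes for the mesoderm and endoderm markers tbxt, mix1, gata4, gata6, sox17b and myf5 were not well above background in hGR caps, nor were the organizer genes gsc and nog, the blood genes gata1 and tal1, and the neural genes ncam1, neurog2 and mab21l2. Of these, the probes of neurog2 and mab21l2 and the Mix.1 probe of mix1 were well above background in the reference. For neurog2.L the hGR signal was 196 and that of the reference 154. In all, 3 of 6 neural plate, 4 of 10 mesoderm and endoderm, 2 of 4 organizer and 1 of 3 blood and endothelium markers with a probe were measured. Among those measured were sox2, sox3, eomes, vegt, sox17a, myod1, chrd, cer1 and lmo2.

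Most genes were close between the samples. The median log2 ratio was 0.01 and its SD across probes 0.39, and 9424 probes (90.4%) were within 1.5-fold. In hGR caps 90 probes (0.864% of those measured) stood 2-fold or more above the reference and 150 (1.44%) 2-fold or more below it, together 2.3%. Large differences lay mostly on the lower side: at 3-fold the counts were 12 higher and 51 lower, and at 4-fold the counts were 3 and 24. The split between higher and lower was 37.5% to 62.5%. With background correction by normexp with an offset of 50, then loess, it was 22 to 72 probes (23.4% to 76.6%). The offset is added to both channels and draws ratios toward 0, most for dim probes, here and wherever normexp and loess are named below. With median centring without a curve the split was 53 to 234 (18.5% to 81.5%). That centre was the median of all gene probes with positive background-subtracted signals, not only of the probes kept. The probes kept then had a median of -0.18, which bears on ratios wherever median centring is named below. Directions below are those of the deposited scaling, and small list medians should be read against that shift.

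**Figure D1:**
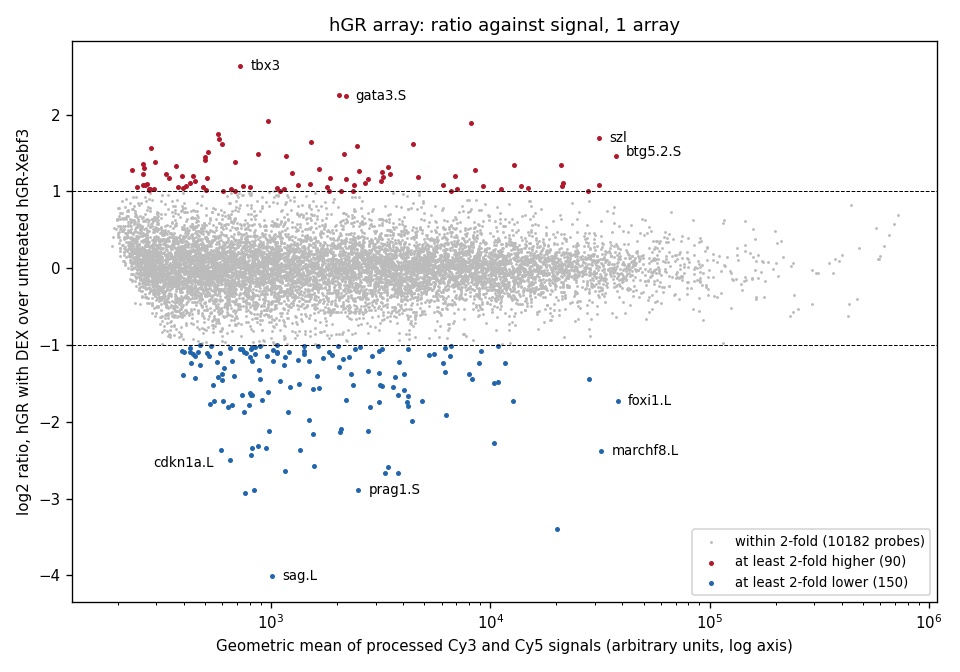
Each dot is 1 of 10422 probes, with the mean signal of the channels on the x axis (log) and the log2 ratio of DEX-treated hGR caps over the reference on the y axis. The dashed lines mark 2-fold, with 90 probes above and 150 below, and the extremes are tbx3 at 2.63 and sag.L at -4.01.

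Reference caps were hybridised on both arrays. Since it is not stated whether they shared an extract, the difference between those channels cannot be assigned to labelling, hybridisation, scanning or the caps. Over the 9944 probes usable on both arrays, the reference channels differed with an SD of 0.157, against 0.378 for hGR caps over the reference. At least 2-fold differences were seen in 18 probes (0.181%) between reference channels and in 216 (2.17%) between hGR caps and the reference. The reference channels are both Cy5, where a dye bias of a probe largely cancels, while the hGR ratio sets Cy3 against Cy5. The gap between these spreads can therefore hold dye bias as well as sample differences, which cannot be told apart. The reference difference was widest for dim probes, with an SD of 0.230 in the dimmest of 4 equal groups by mean signal and 0.0867 in the brightest. From the dimmest group to the brightest, the number of probes 2-fold higher was 30, 20, 23 and 17, and the number 2-fold lower was 18, 69, 44 and 19. The counts for dim probes also depend on the rule that both channels be well above background. It left out 1858 probes that passed in Cy5 only and 56 that passed in Cy3 only.

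**Figure D2:**
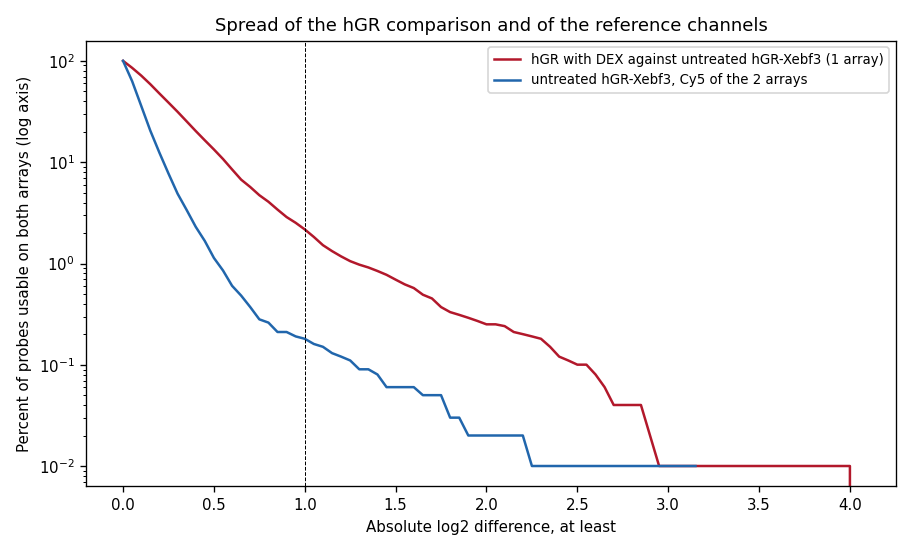
The lines give the percent of the 9944 probes (log axis) whose absolute log2 difference was at least the value on the x axis, for hGR caps over the reference and for the Cy5 channels of the 2 arrays after Aquantile normalization. At 2-fold (dashed) the lines stand at 2.17% and 0.181%. Only the first sets Cy3 against Cy5, so only it holds the full dye bias of a probe.

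Of the probes past 2-fold, 37 higher and 58 lower ones name a protein (41.1% and 38.7%), against 27.8% of all probes measured. The others carry an EST, a clone or a number, among them MGC68907, which at a log2 ratio of -3.39 was the second lowest of all. Those named below are the 20 highest and 20 lowest probes that name a protein, and the members of 28 function lists past 2-fold.

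Transcription factors and secreted proteins were among the highest genes. The highest of all was tbx3, a T-box repressor, with a signal of 1807 in hGR caps and 291 in the reference, 6.2-fold. On the other array the reference again gave a low tbx3 signal, 263, and active EBF3 caps gave 1115. With normexp and loess the log2 ratio of tbx3 was 1.45, against 2.63 as deposited. The signal of gata3.S, a zinc-finger factor of ectoderm and pronephros, was 4757 in hGR caps and 1008 in the reference, 4.72-fold. Both DEX-treated samples were above the reference for gata3.S, since active EBF3 caps gave 6681 against 1104. Both were in Cy3, so this order cannot be told apart from a dye bias of the probe. The Hedgehog pathway factor gli3.L gave 826 and 303, 2.73-fold, but a log2 ratio of 0.65 with normexp and loess, under 2-fold.

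Sizzled is a secreted Frizzled-like protein that inhibits the proteases which cut chordin, and it had 2 probes. They gave 56579 against 17459 and 15782 against 4236, or 3.24-fold and 3.73-fold higher. The active EBF3 caps lay the other way on both, at 458 and 138 against 19051 and 4549 for their reference. The second of these active EBF3 signals did not pass the flags for spot quality or background on that array.

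A ligand and its receptor were both higher. PDGF-A, made by gastrula ectoderm in Xenopus, gave 1456 in hGR caps and 521 in the reference for pdgfa.S. Its receptor pdgfra.L gave 868 and 305. The log2 ratios were 1.48 and 1.51. These were dim probes, and with normexp and loess they stood at 0.79 and 0.67, under 2-fold.

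Several bright probes were also higher. The antiproliferative BTG family member btg5.2.S gave 62049.5 and 22438 (2.77-fold), and hs3st1.L, which adds sulfate to heparan sulfate chains, 33457 and 13216 (2.53-fold). The signal of kctd15.L, an inhibitor of AP-2 in neural crest formation, was 4984 against 2081. All 3 were lower than their reference in active EBF3 caps, at -2.64, -2.59 and -2.61 on the log2 scale. The secreted protease htra1.S was at 1.23, and the hatching enzyme astl3a.1.L, an astacin protease that dissolves the egg envelope, gave 1913 and 808 (2.37-fold, but a log2 ratio of 0.81 with normexp and loess). With median centring htra1.S was just under 2-fold.

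The remaining high probes were more scattered in function. They included a villin-like actin bundler (MGC52940, 1.64), a tubulin beta-2 chain (MGC53436, 1.40), the lysosomal protease ctsz.S (1.38) and the anion channel subunit lrrc8b.S (1.35). The neuronal leucine-rich repeat probe xnlrr-1 was at 1.32, the adaptor sh2d3c.L at 1.16 and lpa-prov at 1.17. With normexp and loess 5 of these were under 2-fold, MGC53436 at 0.65, ctsz.S at 0.71, lrrc8b.S at 0.40, sh2d3c.L at 0.88 and lpa-prov at 0.41. For sh2d3c.L, active EBF3 caps gave 20536 against 1773, a log2 ratio of 3.53.

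The lowest gene was sag.L, which encodes an arrestin of the type that ends phototransduction in the retina. Its signal was 253 in hGR caps and 4079 in the reference, 16.1-fold lower. The hGR signal was dim, and with normexp and loess the log2 ratio of sag.L was -2.37, against -4.01 as deposited. The reference was also bright on the other array, at 5051, and active EBF3 caps gave 421. The untreated caps were thus high in both hybridisations and both DEX-treated samples low. Both DEX-treated samples were in Cy3 and both references in Cy5, so dye and treatment cannot be told apart here. A like order was seen for nt5c3a.L, a pyrimidine nucleotidase: 4706 in hGR caps, 4916 in active EBF3 caps, and 22805 and 25994 in the reference. Likewise ppp1r1a.L, an inhibitor of protein phosphatase 1, gave 599.7 and 913 in the treated caps and 3092 and 3622 in the reference (log2 ratio -2.37 for hGR caps, and -1.59 with normexp and loess). The adhesion molecule nectin1.L gave 3252 and 2611, against 12173 and 14433.

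Several other low genes had signals closer to the reference in active EBF3 caps than in hGR caps. The Cip/Kip-type cyclin-dependent kinase inhibitor cdkn1a.L (p16Xic2) gave 274 in hGR caps and 1542 in the reference (5.63-fold lower), and 1467 against 1590.0 in active EBF3 caps. The galectin lgals4.2.L gave 260.1 and 1342, with 1483 and 1394 on the other array. Cyclin B5, a mitotic cyclin, gave 2263 and 7841, with 9629 and 9609. The repair enzyme parp3.L was at -2.58 and the adenosine receptor adora2a.L at -2.64, and both were also below the reference in active EBF3 caps, at -0.51 and -0.68. The iron exporter ferroportin, slc40a1, was at -1.73 and -0.22. With normexp and loess the hGR array gave cdkn1a.L -1.21, lgals4.2.L -1.05, adora2a.L -1.71 and slc40a1 -0.78, the last under 2-fold.

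A further set was low in hGR caps and above the reference in active EBF3 caps. The neuronal intermediate filament gene ina.S gave 2205 and 8767 on the hGR array (3.98-fold lower) and 27379 and 9864 on the other. The zinc-finger factor glis2.S (NKL) gave 360.2 and 1236, then 4125 and 1438. The endoplasmic reticulum prolyl isomerase fkbp9.L gave 472 and 2057, then 3907 and 2329. With normexp and loess glis2.S was at -0.90, under 2-fold, and fkbp9.L at -1.29. For these 3 genes the reference lay between the DEX-treated samples.

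Enzymes, GTPases and membrane proteins made up the rest of the lowest 20. The bright probe of marchf8.L, a membrane-bound ubiquitin ligase, gave 14109 and 73199 (5.19-fold lower), and prag1.S, a pseudokinase, 923 and 6804 (7.37-fold lower). The small GTPase diras3.S was at -2.32, tankyrase (tnks.S) at -1.87, a phosphatidylserine decarboxylase-like probe (MGC52759) at -2.13 and a thrombin receptor-like probe (MGC52649) at -1.80. With normexp and loess prag1.S was at -2.28, diras3.S at -1.31, tnks.S at -1.22 and MGC52649 at -0.84, the last under 2-fold. The proprotein convertase furin.L, which cleaves BMP precursors among others, gave 6975 and 23204, while furin.S gave 3487 and 2502. The homeologs of furin thus lay at -1.73 and 0.48.

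**Figure D3:**
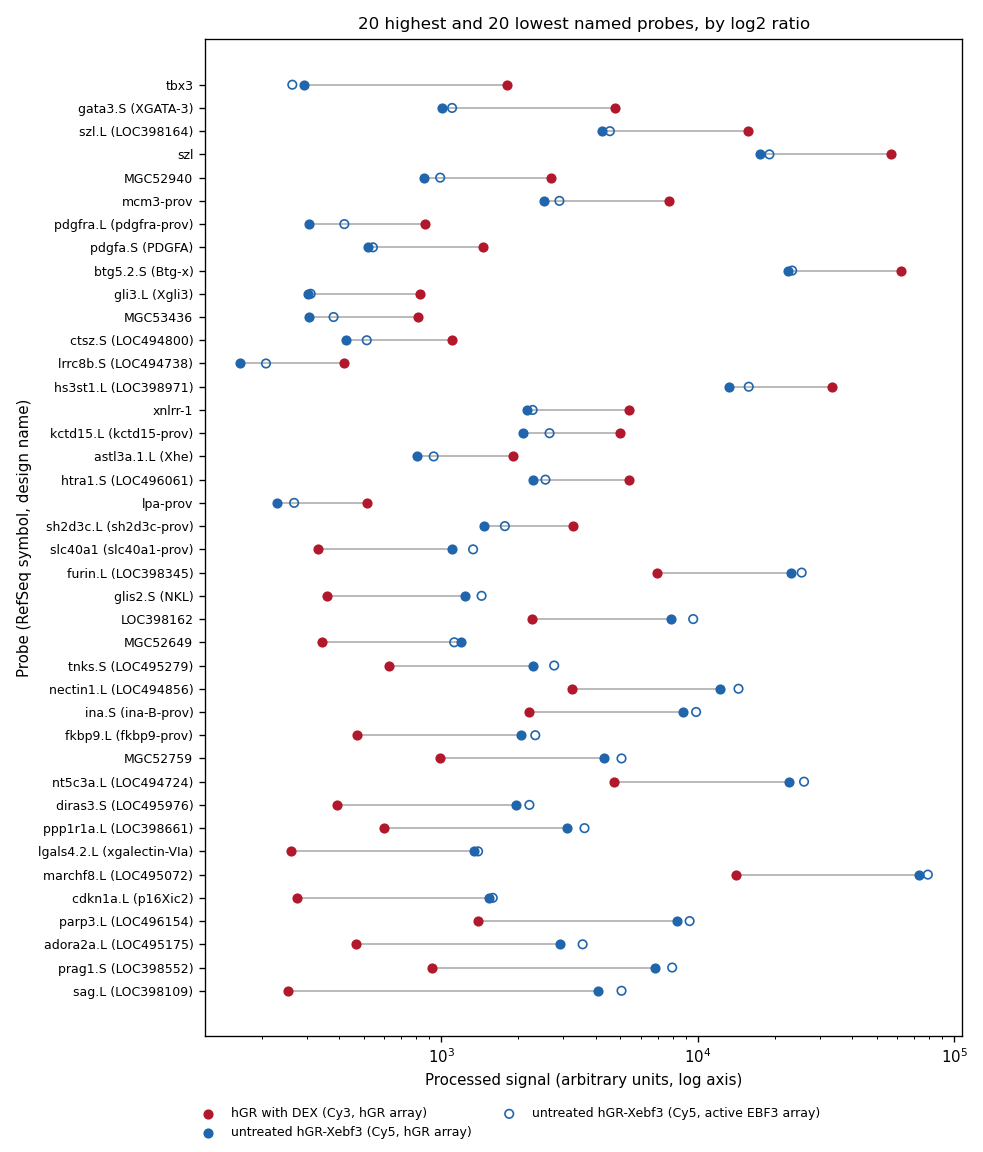
Signals of the 20 highest and 20 lowest probes that name a protein, on a log axis, in order of log2 ratio. Filled circles are the channels of the hGR array and open circles the reference on the other array. For sag.L the reference circles stand at 4079 and 5051 and the hGR caps at 253.

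The 28 lists held 590 of the probes measured, of which 13 lay 2-fold or more above the reference and 12 below it, 4.24% together against 2.3% of all probes. In 11 lists no probe was past 2-fold, and 19 of the 28 medians lay within 0.15 of 0. The lists were made with earlier results of these data known, and single-array values give no test of a list.

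The ventral BMP-responsive list had the highest median. Of its 25 probes on the array 21 were measured, with a median log2 ratio of 0.63, and 18 of the 21 were above 0 where 51.9% of all probes were. Under the alternatives the median stayed between 0.41 and 0.63. Probes for gata3.S, gata2.L and both szl probes were past 2-fold on the higher side, and foxi1.L, given below, on the lower. Together they were 23.8% of the probes measured in the list, against 2.3% of all probes. The szl probes are of 1 gene. The gata2.L signal was 31468 and 14555 (2.16-fold), and its log2 ratio was 0.87 with median centring, under 2-fold.

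Inhibitors that act inside the cell or at the receptor were higher but inside 2-fold. Smad6.L gave 1645 and 846 (log2 ratio 0.96), smad7.L 12507 and 7784 (0.68), and the decoy receptor bambi.L 144125 and 93133 (0.63). The homeobox genes ventx1.1 and ventx2.1.L, ventral repressors of organizer genes, were at 0.86 and 0.65, a second ventx2.1 probe at 0.34 and ventx2.2.L at 0.10. The helix-loop-helix inhibitor id4 was at 0.85. Of the ligands, the bmp2 probes were at 0.41 and 0.12 and the bmp7 probes at 0.66 and 0.03. The extracellular BMP regulator twsg1 was at 0.32.

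The other 3 members were below 0. The forkhead gene foxi1.L, an ectodermal factor that marks ionocyte precursors, gave 21102 in hGR caps and 69647 in the reference, 3.3-fold lower. In active EBF3 caps it was lower still, 1728 against 84292. The other members below 0 were hes1.L at -0.80 and ventx3.2.S at -0.53.

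Few dorsal organizer genes were measurable, 6 of 25 probes. Chordin (chrd.1.S), the BMP antagonist, gave 555 in hGR caps and 1697 in the reference, 3.06-fold lower, and 4394 against 1949.5 in active EBF3 caps. The order of chordin was thus hGR caps, reference, active EBF3 caps, and that of szl the reverse. The homeobox gene not.L was at 0.47, the Wnt antagonist dkk1.S at 0.39, cerberus at -0.27 and admp.S, a BMP-like ligand of the organizer, at -0.36. The probe szl.L was also in this list through its description as frzb3, though sizzled is a ventral gene, and the list median of 0.06 turned to -0.27 at the lowest alternative.

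**Figure D4:**
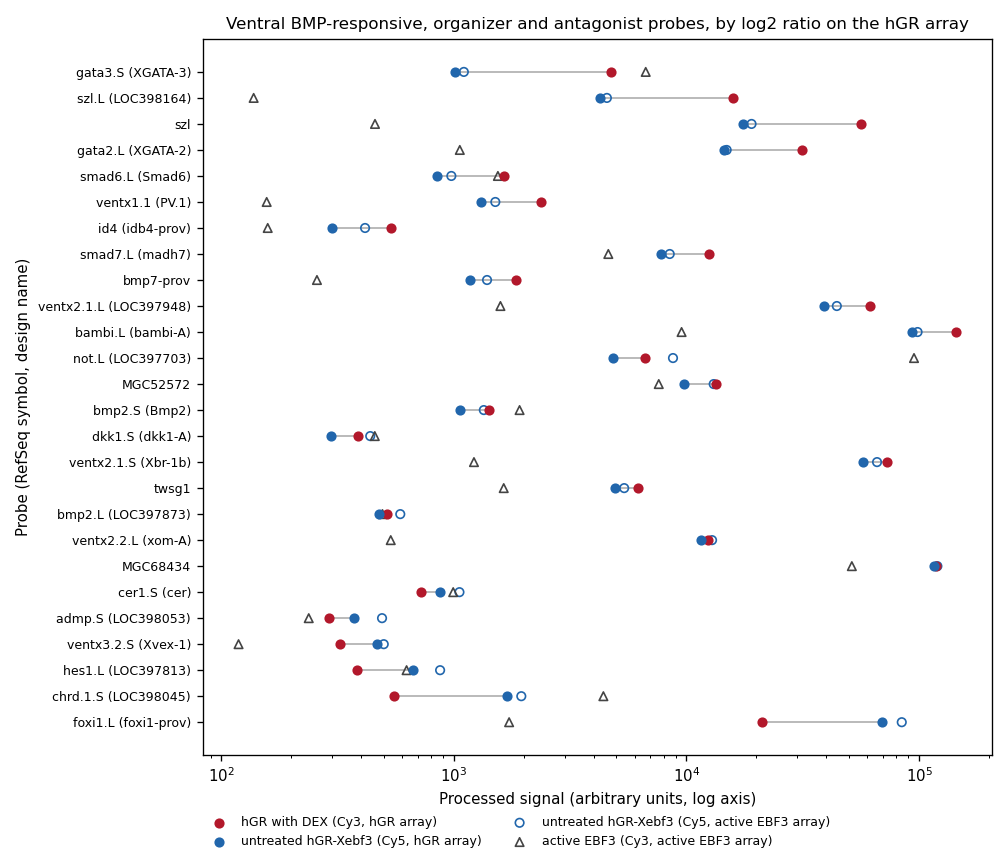
Signals (log axis) of the probes in the ventral BMP-responsive and organizer lists, in order of log2 ratio on the hGR array. Filled circles are the hGR array, open circles the reference and triangles active EBF3 caps on the other array. For szl the hGR caps stand at 56579, the reference at 17459 and active EBF3 caps at 458. For chrd.1.S the values are 555, 1697 and 4394.

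Of 11 probes for genes known to respond to glucocorticoids 7 were measured. None was 2-fold higher in the DEX-treated caps, where 0.864% of all probes were. With so few probes, having none higher is near that share. At least 2-fold lower were 2, where 1.44% of all probes were. Of the others 3 were below 0 and 2 above, where 51.9% of all probes were above. The leucine zipper gene tsc22d3 gave 1211 in hGR caps and 1274 in the reference (log2 ratio -0.07), the clock gene per1.L 6553 and 8673 (-0.40), and the Kruppel-like gene klf9.L 294 and 347 (-0.24). These 3 differences are under 1.5-fold. The receptor gene nr3c1.L itself was detected by its 2 probes, at 1477 and 1179.8, and at 506 and 471. The 2 members past 2-fold were cdkn1a.L, above, and the forkhead factor foxo3, with 2228 and 4598 (2.06-fold lower, but at -0.93 with normexp and loess). The list median of -0.24 is the value of the dim klf9.L probe, which was at -0.01 with normexp and loess. Under the alternatives the median kept its sign but ran from -0.29 to -0.06.

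Notch signalling sets the fate of neighbouring cells through effectors that repress transcription. The effectors of the Hairy and Enhancer of split family lay on both sides: hes5.10.L (ESR-6e), an epidermal member, gave 996 and 2639 (2.65-fold lower), esr10-A gave 1157 and 2307, just inside 2-fold, and MGC53782 was at -0.86 and hes1.L at -0.80. On the other side, hes4.L (hairy2b) gave 39335 and 19616, 2.01-fold higher, at the threshold itself and under it in 3 alternatives, and hey1.S was at 0.74. A second hes4 probe was at 0.24. Of the ligand, receptor and transducer, jag1.L was at -0.59, notch1.S at -0.30 and rbpj.S at -0.16. The median of the 12 probes was -0.29 (from -0.51 to -0.24 under the alternatives). Below 0 were 8 of them, where 51.9% of all probes were above it. Past 2-fold were 16.7% of them, against 2.3% of all probes.

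Keratins and ectodermal transcription factors lay on both sides of the reference. The log2 ratios of the epidermal list had an SD of 0.51, against 0.39 over all probes measured. That SD includes ESR-6e, the lowest member at -1.41, while the highest was at 0.46. It was not computed without ESR-6e, so it does not describe the spread of the other members. In the epidermal list, 15 of 23 probes were measured with a median of 0.12, which is the value of the saturated krt70.S probe. The median was 0.06 without that probe and ran from -0.09 to 0.11 under the other alternatives. The keratins krt8.1.S and krt18-prov were at -0.21 and -0.13, and the ectodermal factors tfap2a.S and dlx5.L at 0.46 and 0.43. ESR-6e was its 1 member past 2-fold, 6.67% of the probes measured in the list, against 2.3% of all probes. Another keratin, krt12.5.S, which was not in this list, gave 31785 and 17625 (log2 ratio 0.85). The krt70.L probe gave 16609 and 25332 (-0.61). In the neural list, 19 of 42 probes were measured with a median of 0.24 (from -0.07 to 0.14 under the alternatives). The neural plate factor sox2.L gave 11487 and 6812 (0.75), the RNA-binding protein gene elavl3.L was at 0.98, while sox3.S was at -0.16 and zic2 at -0.33.

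The mesendoderm list had 12 of 27 probes measured, with a median of 0.27 (from -0.16 to 0.24 under the alternatives). Its 1 probe past 2-fold (8.33%, against 2.3% of all probes) was szl, matched through the words Xwnt8 inhibitor in its description. The T-box genes lay apart: eomes probes were at 0.66 and 0.60, and vegt probes at -0.61 and -0.91, with vegt signals of 2626 and 3854 in hGR caps against 4008 and 7228. The muscle regulator myod1.L was dim, at 437 and 246 (log2 ratio 0.83). Its reference signal on the other array was 645, and with that channel as reference the log2 ratio was -0.31. In the blood and muscle lists 3 and 7 probes were measured, with medians of 0.61 and 0.37, and the muscle median was 0.10 with the other reference channel.

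In the Wnt and FGF lists 13.6% and 6.25% of the probes measured were past 2-fold, against 2.3% of all probes. In the Wnt list, 22 of 35 probes were measured with a median of 0.14. Both szl probes were past 2-fold higher, so its share rests mostly on 1 gene, described above as an inhibitor of chordin-cutting proteases. The only other Wnt probe past 2-fold was wnt11b.L, the ligand of convergent extension. It gave 1260.1 and 2682 (2.13-fold lower, but a log2 ratio of -0.86 with normexp and loess). Active EBF3 caps gave 25579.9 against 3621 for wnt11b.L. The Wnt antagonist sfrp2.S was at -0.85, and the receptors fzd2.S, fzd7 and fzd8 were at 0.62, 0.27 and -0.01. Intracellular members were close to 0: ctnnb1 0.03, gsk3b.L -0.01 and dvl2.L -0.02.

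In the list for FGF, EGF and MAP kinase genes, which its text pattern widened to Rab and Rap GTPases, 35 of 48 probes were below 0. Of all probes 51.9% were above it. The median of the list was -0.14 (from -0.35 to -0.14 under the alternatives). The receptor fgfr2.L gave 1675 and 3465 (2.07-fold lower, -0.88 with normexp and loess) and fgfr4.L was at 0.63. The ligand fgf8.L was at -0.63. The feedback inhibitors spry2.L, spry2.S and dusp6.S were at -0.19, -0.27 and -0.34. Past 2-fold were also the small GTPases rap2b.S, with 17016 and 46385 (2.73-fold lower), and ras-dva1.L, with 4129 and 1851 (2.23-fold higher, but a log2 ratio of 0.91 with normexp and loess).

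Of 54 cell cycle probes 38 were below 0, where 51.9% of all probes were above it. Their median was -0.16 (from -0.39 to -0.15 under the alternatives). Past 2-fold were 5.56% of them, against 2.3% of all probes. Apart from cyclin B5 and cdkn1a.L, a probe described as cyclin B4 was at -0.89 and cyclins A1 and B2 at -0.48 and -0.40, whereas cyclin D1 was at 0.72 and cdk1.L at 0.16. The 2 cyclin E2 homeologs parted: ccne2.S gave 30665 and 14616 (2.1-fold higher, but a log2 ratio of 0.83 with median centring) and ccne2.L 15718 and 19418 (log2 ratio -0.31). In DNA replication, 33 probes had a median of -0.07. Past 2-fold was 1 of them (3.03%), near the 2.3% of all probes. It was mcm3-prov, with 7758 and 2522 (3.08-fold higher). The other MCM3 probe, Xmcm3, was at -0.26, and mcm2.L, mcm5 and mcm7 at -0.45, -0.01 and 0.15.

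Some mRNAs known to be stored in the frog egg are given here, chosen after their values were seen. The polyadenylation factor cpeb1, which the splicing list matched, gave 1396 in hGR caps and 3997 in the reference, 2.86-fold lower, and active EBF3 caps gave 4156 against 4944. Cyclin B5, wnt11b.L and vegt were lower too, as given above. The egg linker histone B4 (h1-8.S) was at -0.18, embryonic poly(A)-binding protein (ePAB) at -0.10, the germ-line helicase ddx4.L at 0.05 and the oocyte form of elongation factor 1 alpha, eef1a1o.S, a saturated probe, at 0.69.

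Housekeeping and structural lists held few probes past 2-fold, as did the whole array, where 2.3% of all probes were. Lists of this size would hold few or none at that share. Mitochondrial energy genes ran from -0.25 to 0.35 (13 probes), cytoplasmic ribosomal protein genes from -0.10 to 0.11 (4 probes) and adhesion genes from -0.59 to 0.37 (25 probes), each with none past 2-fold. The glycolysis enzymes had a median of -0.15 over 14 probes and pgk1 was the lowest at -0.63. Chaperones had a median of -0.06 over 27 probes, from hspa5, the chaperone of the endoplasmic reticulum, at -0.63 to hsp70 at 0.50. Lipid and sterol genes (22 probes), proteasome and ubiquitin genes (30), histones (8) and extracellular matrix genes (21) also had none past 2-fold, and the members farthest from 0 in the last 3 were herpud1 (0.81), h1-10.S (0.87) and col9a3.L (-0.54). The lipid list ran from osbpl2.L, an oxysterol-binding protein gene, at -0.86 to 0.87. Of 47 cytoskeletal probes 30 were above 0, where 51.9% of all probes were, and their median of 0.03 was -0.21 at the lowest alternative. The villin-like and tubulin beta-2 probes named above were past 2-fold higher, 4.26% of the cytoskeletal probes, against 0.864% of all probes. The hyaluronan synthase-related gene has-rs.S gave 684619 and 476509 (log2 ratio 0.52).

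In the translation, transport and protease lists 4.0%, 3.57% and 5.56% of the probes measured were past 2-fold, against 2.3% of all probes. Of 25 translation factor probes 18 were above 0, where 51.9% of all probes were, and their median of 0.10 was -0.10 at the lowest alternative. MGC53707, described as similar to an initiation factor, gave 19928 and 9522 (2.09-fold, but a log2 ratio of 0.82 with median centring), while eif4a2 was at 0.82. Of 56 transport and channel probes, slc40a1 was past 2-fold, as was kctd15.L, which is in the list through the potassium channel words of its description and is not itself a channel. There the amino acid transporters slc7a3.L and LAT-1 (MGC68975) were at 0.74 and 0.99. Of 36 protease probes the hatching enzyme was past 2-fold higher and thop1.L, thimet oligopeptidase, past 2-fold lower, with 3774 and 8212. With the other reference channel thop1.L was just under 2-fold.

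**Figure D5:**
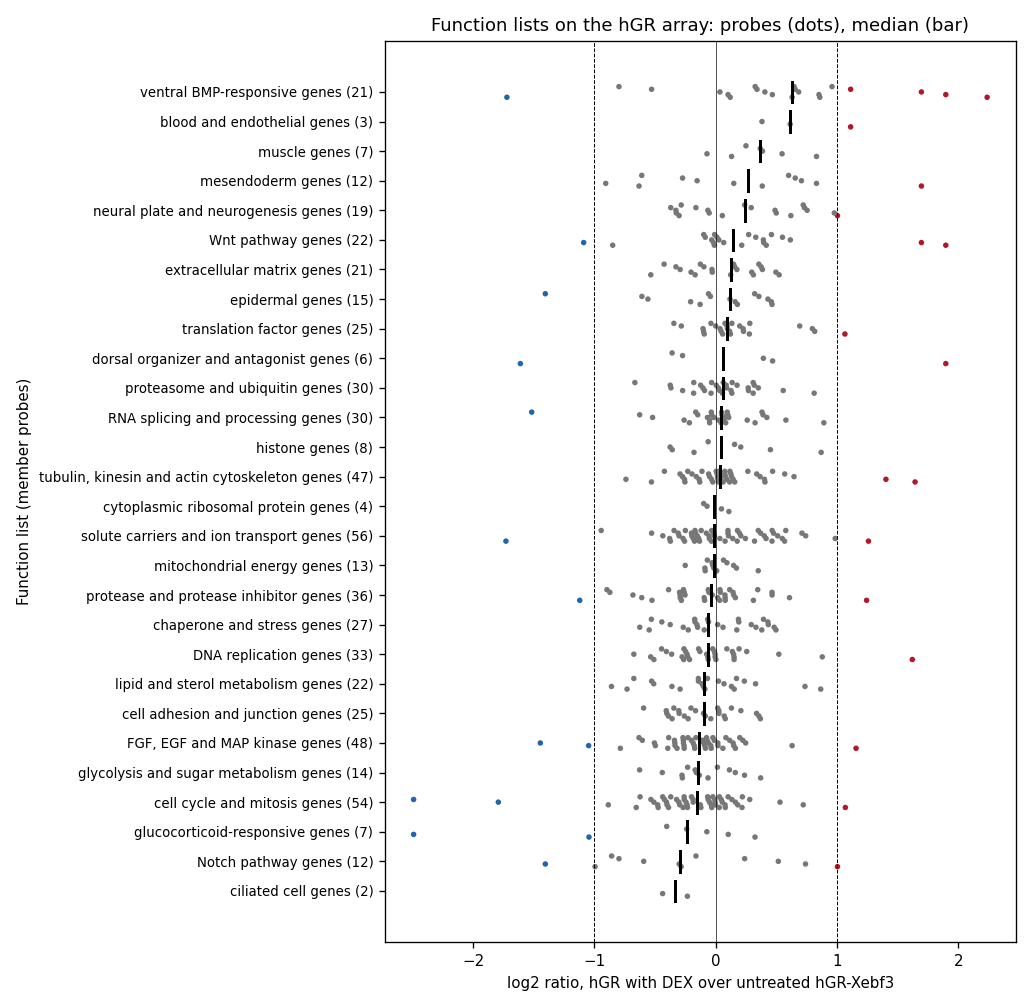
Each dot is a probe of a function list, on the log2 ratio of hGR caps over the reference, and each bar the median of a list. Lists are in order of median, from 0.63 for ventral BMP-responsive genes to -0.34 for the 2 ciliated cell probes, and coloured dots are past 2-fold (dashed lines).

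For 158 genes with 2 probes the ratios had a Pearson correlation of 0.39 across genes, which are not replicates, and a median difference of 0.22. The probes can be for the L and S homeologs, which are different genes with like sequences. The differences reached 1 or more for 6 genes, among them furin, ccne2, rgs4 (-0.90 and 0.95), rpa3 (-0.54 and 0.88) and pim1 (-0.51 and 0.73). Of 6 genes with a probe past 2-fold, szl had both past it.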

How the data were processed

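Each array held 1 sample per channel, and groups were taken from the treatments per the labels. Spot intensity came from Feature Extraction 8.1.1.1 on scans of 10 µm pixels, per the file headers, though the study's methods give other settings. The authors' processed intensity was background-subtracted and dye-normalized within the array by LOWESS (smoothing factor 0.25). Before it, the median log2 ratio of the probes used was -0.78. In the deposited log10 ratio Cy5 is divided by Cy3. The deposited p-value of each ratio covers spot error only and was used as a filter in 1 alternative. The authors' series table (log10, 21407 rows, 16921 values for the hGR array, median -0.00147) had no stated scale or direction, and 100% of its values were the negative of that log10 ratio, within 1e-05.

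The log2 ratio of processed Cy3 over Cy5 intensity was computed, and 2-fold was the threshold, after the study's methods. With 1 array per group no test was run. Lists were filled by gene symbol or by words in the description, and lists may overlap. Names follow the array design, and 3586 of 21495 probes matched a RefSeq symbol (Xenopus_laevis_v10.1, names only). Named genes are the 20 highest and 20 lowest unsaturated probes that name a protein, list members past 2-fold (or the extremes of a list with none), all glucocorticoid probes and other probes of the same genes. Further list members were named after their values were seen, to describe a list. The members and lists were chosen with earlier results of these data known. A correction of the words that mark an EST was made after values had been seen. Reference channels were compared after Aquantile normalization of both arrays in limma 3.58.1 (R 4.3.3); ratios were computed in Python 3.11.15 and the steps tested on simulated data. List medians without saturated probes were an alternative chosen after seeing the data. Processed signals of different arrays were scaled separately.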

Additional observations from a re-analysis of the deposited data

How the results depend on the processing

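The counts of 90 higher and 150 lower probes were the same when non-uniform spots were kept or a spot p-value under 0.01 was required. Removing saturated spots could not change these counts, since none was past 2-fold. The series table and the deposited log10 ratio hold the same ratios, so they could not change the counts either. With the Cy5 channel of the active EBF3 array as reference they were 96 and 160, of which 66 and 128 were among the same probes, and by gene 85 and 148. Normexp with an offset of 50 and loess gave 22 and 72, all among the same probes, and median centring without a curve 53 and 234. When 1 channel above background was enough the counts were 115 and 328, with no background filter 217 and 870, and with both signals at least 50 they were 217 and 381. At 1.5-fold they were 508 and 490 and at 3-fold 12 and 51. Of 54 named probes past 2-fold, 22 were under it in at least 1 of the 4 alternatives run on them, and no direction was reversed. Of those 4, the background rule of 1 channel leaves the ratio of a named probe as it was, so it could not change it. The medians of 14 of 28 lists changed sign in an alternative. No paired analysis was possible because there was a single array per group. For the same reason no replicate could be left out. Precision is limited by the single array, and dim probes had the widest spread between reference channels.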

Other observations

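Of the 1914 probes well above background in 1 channel only, 11 were higher and 41 lower in DEX-treated hGR caps by 2-fold or more, when a dim signal under the lowest that counted as well above background was raised to that level. Of the 1914 probes, 1858 passed in Cy5 only and 56 in Cy3 only. The side on which large folds fell was therefore largely set by this selection. Of the probes measured in both channels, 0.864% were 2-fold or more higher and 1.44% lower. Of the 11 and 41 probes, 1 higher and 14 lower ones name a protein. These folds depend on the background correction, and there was no dye swap. With normexp and loess 14 of the 15 named ones were under 2-fold. The exception was the neural gene mab21l2.S, with signals of 232 in hGR caps, not well above background, and 1909 in the reference. The ratio of its signals was 8.22-fold, and its log2 ratio was -1.54 with normexp and loess. The probe of ebf2, a relative of EBF3, gave 39.0 in hGR caps, not well above background, and 451 in the reference, and its log2 ratio was -0.46 with normexp and loess.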
